A study of Sus scrofa with 9 samples.

Results

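Elastic fibres give the aortic valve leaflet its recoil, and 10 genes that build and cross-link them were followed through porcine valvular interstitial cells (PVICs) in 3 culture media. The genes were chosen by symbol among the 19535 gene rows of the count table: ELN, FBN1, FBN2, FBLN5 and EMILIN1, which encode structural proteins of the fibre, and LOX, LOXL1, LOXL2, LOXL3 and LOXL4, which encode the lysyl oxidase family. All 10 had enough counts to be tested, as 13662 genes of the table did. PVICs are the fibroblast-like cells inside the valve; here they were isolated from aortic leaflets of pigs aged 4 to 5 months, grown in serum-containing DMEM and, per the study's methods, used after a few passages. The control group (NC in the labels) stayed in DMEM. The OIM group received osteogenic medium, which held ascorbic acid (50 µg/mL), insulin and a phosphate source, sodium dihydrogen phosphate at 2 mmol/L, and the bFGF group (BFGF in the labels) received the same osteogenic medium with 50 ng/mL basic fibroblast growth factor. The labels give 3 days of treatment for every group, and the study's methods give a shorter one. Each group had 3 libraries, all wild type. No bFGF was added to DMEM alone, so every bFGF value is for cells that also had OIM. Nothing says whether the replicates came from separate animals or cultures, so the p-values measure only the spread between these libraries, which may be technical.

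An elastic fibre has an amorphous core of cross-linked elastin on a scaffold of fibrillin microfibrils. Soluble tropoelastin, the product of ELN, is brought to the microfibrils with the help of fibulins such as fibulin-5, and the copper enzymes of the lysyl oxidase family then oxidise its lysines, which form the covalent cross-links. The same enzymes cross-link collagen. In the leaflet, elastin lies mainly in the layer that faces the ventricle and in strands that link the layers, and fragmented elastin is a known feature of calcified valves.

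The libraries held between 46773376 and 67371523 gene counts, and the bFGF libraries held the fewest. Levels are given in CPM, counts scaled to a common library size, after TMM, which corrects for unequal composition of the libraries; a value with ± is the mean and SD of 3 libraries. The markers of the labelled cell type were strong: the 8 interstitial or fibroblast markers summed to 60900 to 69800 CPM in control and OIM and to 37100 to 37500 CPM in bFGF. Most of that sum is collagen. COL1A1, COL1A2 and COL3A1 were called lower in bFGF than in OIM, and so was DCN, which is not a collagen gene. In contrast, VIM was called higher (5694 to 9008 CPM, log2 fold change 0.66) and LUM (0.011), PDGFRA (-0.059) and PDGFRB (0.13) were not called. The 5 endothelial markers summed to 18.0 to 21.6 CPM in control and OIM and to 30.3 to 33.5 CPM in bFGF, mostly PECAM1 and CDH5. PECAM1 (0.81), CDH5 (0.51), KDR (2.73) and TEK (1.04) were called higher in bFGF than in OIM, and VWF (-0.43) was not called. The 4 leukocyte markers summed to 12.6 to 15.5 CPM in control and OIM and to 7.73 to 8.44 CPM in bFGF. Most of this was CD14, which was called lower in bFGF than in OIM (-0.81). PTPRC (-0.70) and CSF1R (-0.65) were not called, and CD3E had 0 counts everywhere. The 3 cardiomyocyte markers in the table summed to at most 1.11 CPM, with TNNT2 at 0 counts. For a gene at 0 counts in every library, such as CD3E, TNNT2 and those named below, an absent transcript and one that was not counted cannot be told apart. The 4 smooth muscle or myofibroblast markers summed to 9570 to 10100 CPM in control, 9850 to 13100 CPM in OIM and 1540 to 1710 CPM in bFGF, and all 4 of them (ACTA2, TAGLN, CNN1 and MYH11) were called lower in bFGF than in OIM; the part of this shift in the results below was not tested. In these bulk libraries, fewer cells of a kind and less RNA per cell cannot be told apart. OIM replicate 2 stood apart from its group, with a mean chi-square per gene of 19.5 against each of the other OIM libraries, which had 5.92 against each other. Control replicate 2 did so to a smaller extent, with 11.8 and 8.78 against the other control libraries, which had 5.7 against each other. No pair of replicates agreed within sampling noise.

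The positions of the genes are those of the RefSeq annotation of Sscrofa11.1, the build that both the labels and the paper name. ELN lies on chromosome 3 (11214194 to 11245891, plus strand) with 28 annotated transcripts, and LOXL3 (68498114 to 68516829, plus strand) and EMILIN1 (112031910 to 112039928, minus strand) share that chromosome. FBN1 lies on chromosome 1 (123102011 to 123359649, plus strand). LOX (125595115 to 125607026) and FBN2 (131150665 to 131370241) are both on the minus strand of chromosome 2. LOXL1 (59481410 to 59505161) and FBLN5 (113423629 to 113526412) are on the minus strand of chromosome 7, and LOXL2 (7435861 to 7540699) and LOXL4 (109571942 to 109593408) on the minus strand of chromosome 14.

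The 250 bases upstream of 3 of these genes are shown because the genes span the responses described below: ELN, which was called in both directions, LOXL2, which was called lower with bFGF, and LOXL1, which was called higher. Each sequence is from the RefSeq assembly Sscrofa11.1, is read 5′ to 3′ on the strand of the gene and ends at the base before the annotated start. Capitals mark every match to 4 short motifs chosen after the values were known: the AP-1 site TGANTCA, the GC box GGGCGG and the SMAD box GTCTG, on both strands, and TATAAA on the strand of the gene. ELN (chr3:11213944-11214193), LOXL2 (chr14:7540700-7540949) and LOXL1 (chr7:59505162-59505411) read as follows.
ELN: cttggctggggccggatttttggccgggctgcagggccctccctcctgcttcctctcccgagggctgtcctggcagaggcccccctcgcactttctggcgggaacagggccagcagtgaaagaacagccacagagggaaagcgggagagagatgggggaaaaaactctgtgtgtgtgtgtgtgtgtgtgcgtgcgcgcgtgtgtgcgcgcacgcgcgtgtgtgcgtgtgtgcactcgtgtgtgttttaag
LOXL2: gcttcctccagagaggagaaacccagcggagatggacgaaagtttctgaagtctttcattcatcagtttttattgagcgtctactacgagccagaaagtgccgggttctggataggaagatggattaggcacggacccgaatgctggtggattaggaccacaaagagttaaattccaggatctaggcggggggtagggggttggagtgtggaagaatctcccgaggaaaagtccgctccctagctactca
LOXL1: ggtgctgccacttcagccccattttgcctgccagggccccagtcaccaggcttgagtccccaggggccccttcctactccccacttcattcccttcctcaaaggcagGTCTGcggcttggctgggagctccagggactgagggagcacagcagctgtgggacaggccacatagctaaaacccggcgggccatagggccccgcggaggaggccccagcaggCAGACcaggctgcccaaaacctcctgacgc

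The ELN and LOXL2 windows held 0 matches to the 4 motifs, and the LOXL1 window held 2 SMAD boxes. An AP-1 site was found in 0 of these 3 windows and in 5.27% of the 19569 windows of all protein-coding genes on the assembled chromosomes. TATAAA was also found in 0 of the 3, against 6.15% of all windows. The GC box and the SMAD box occurred in 45.9% and 39.0% of all windows. Over 9 of the members, 4 windows held a GC box (FBN2, LOX, LOXL3 and LOXL4) and 6 a SMAD box (FBN2, FBLN5, EMILIN1, LOX, LOXL1 and LOXL3). ELN's window had a GC content of 62.8%, LOXL1's 65.6% and LOXL2's 50.8%, against a median of 57.6% over all windows. These are matches of letters near an annotated start, and the missing ones say only that the letters are not in the window. The windows of LOX and FBN2 are not shown, since their RefSeq models begin 16 and 0 bases before the coding sequence. Both are in the counts over 9 members above, and their windows may lie inside the transcript.

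Per length of exon, the family was dominated by a few transcripts. In control cells LOXL2 stood highest at 696 ± 37.5 CPM per kilobase, followed by FBN1 at 536 ± 19.2 and LOX at 244 ± 8.50 CPM per kilobase. EMILIN1 (73.0), FBLN5 (56.4) and LOXL4 (42.5) came next, then ELN (32.1), LOXL1 (30.7) and LOXL3 (25.7), with FBN2 lowest at 4.03 CPM per kilobase. Of neighbours in this order, ELN and LOXL1 overlapped between libraries and the others did not. In OIM the order opened with FBN1 (485 ± 36.9 CPM per kilobase) and LOXL2 (427 ± 7.44), and ELN moved up to 64.0 ± 10.3 CPM per kilobase, where its libraries overlapped those of FBLN5 (50.4 ± 2.77); LOXL1 (36.1) and LOXL3 (33.7) overlapped as well. In bFGF the order was FBN1 (175 ± 2.45), LOXL2 (107 ± 1.14), LOX (101 ± 2.20), EMILIN1 (79.8), FBLN5 (55.7) and LOXL1 (55.3, overlapping FBLN5), and ELN (12.5 ± 1.27) was next to last, above FBN2 (9.46 ± 0.260 CPM per kilobase). FBN1 was the 18th and LOXL2 the 45th most abundant of the genes tested by mean count. The order between genes depends on the RefSeq exon lengths: FBN1, FBN2 and LOX have a single, short-ended model of 9525, 10278 and 1580 bases.

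**Figure D1:**
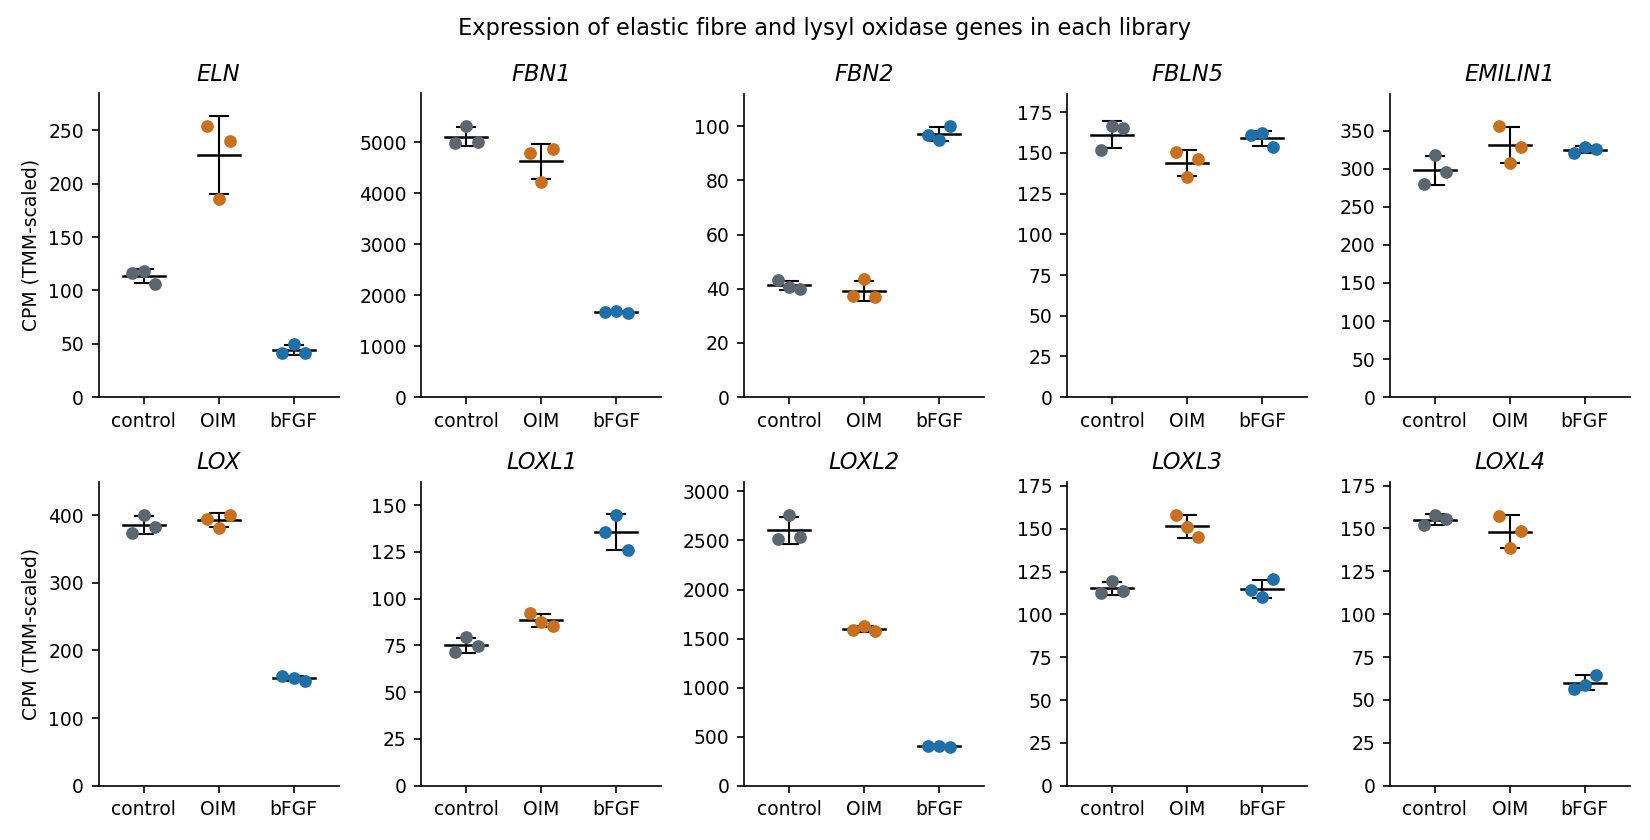
Expression of the 10 genes in each library, in TMM-scaled CPM on axes that start at 0; points are libraries, the horizontal line is the mean and the bar 1 SD (n = 3 per group). ELN is high in OIM (185 to 254 CPM) and low in bFGF (41.6 to 49.5 CPM), whereas FBN2 and LOXL1 are highest in bFGF and FBLN5 and EMILIN1 stay within a narrow range.

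The comparison of OIM with control asks what the osteogenic medium did to these transcripts. A gene was called at an adjusted p of at most 0.05 (quasi-likelihood test of edgeR, Benjamini-Hochberg adjusted over all genes tested) with a log2 fold change of 0.5 or more in either direction. ELN was called higher and LOXL2 lower in OIM, and the other 8 genes were not called. This is 1 of 10 in each direction, against 1.49% of all genes called higher and 0.864% called lower. On the adjusted p alone, 7 of the 10 genes passed, against 13.6% of all genes, and in 6 of the 10 the OIM and control libraries did not overlap, against 28.8%. The median log2 fold change of the 10 was -0.022, beside -0.0019 for all genes tested.

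ELN encodes tropoelastin, the monomer of the fibre core. Its level was 116, 118 and 106 CPM in the control libraries and 254, 185 and 240 CPM in the OIM libraries. The groups did not overlap, and OIM replicate 2 was the lowest of its group. The log2 fold change was 0.997 (standard error, SE, 0.084, 95% confidence interval 0.82 to 1.17, adjusted p = 1.05e-07), and it ranked 188th from the top among the 13662 genes. Without OIM replicate 2 it was 1.13. Of the 4 smooth muscle or myofibroblast markers, MYH11 was also called higher in OIM (log2 fold change 1.13, adjusted p = 1.02e-05), and the median of the 4 was 0.397. MYH11 had 325, 182 and 337 CPM in the OIM libraries, so OIM replicate 2 was the lowest there too; the part of these markers in the ELN result was not tested.

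LOXL2 encodes a secreted lysyl oxidase that acts on collagen IV and other matrix proteins. It had 2511, 2765 and 2534 CPM in control and 1589, 1628 and 1575 CPM in OIM. The groups were well apart, and OIM replicate 2 lay with the other OIM libraries here. The log2 fold change was -0.70 (SE 0.036, adjusted p = 1.22e-10), and it ranged from -0.73 to -0.66 when single libraries were left out.

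LOXL3 had 113, 119 and 114 CPM in control and 158, 151 and 145 CPM in OIM, again without overlap. Its log2 fold change of 0.39 (95% confidence interval 0.30 to 0.49, adjusted p = 3.47e-06) lay under the fold limit, so LOXL3, an oxidase needed for normal cartilage and palate, was not called. LOXL1, the family member most closely tied to elastin upkeep, was in the same position with 75.2 ± 4.02 CPM in control and 88.4 ± 3.54 CPM in OIM and a log2 fold change of 0.23 (adjusted p = 0.00453). These are small differences beyond the spread between libraries.

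FBN1, FBLN5 and EMILIN1 differed by less still. FBN1, which encodes the main fibrillin of adult microfibrils, had a log2 fold change of -0.14 (adjusted p = 0.0312), FBLN5, which encodes the tropoelastin-binding fibulin-5, -0.16 (adjusted p = 0.0208), and EMILIN1, which encodes a glycoprotein at the border of core and microfibril, 0.15 (adjusted p = 0.0440). Their adjusted p reached 0.130, 0.101 and 0.249 when single libraries were left out. It passed 0.05 for FBN1 without any 1 control library or OIM replicate 2, for FBLN5 without control replicate 2 or 3 or OIM replicate 2, and for EMILIN1 without any 1 library other than control replicate 2 and OIM replicate 2. Without OIM replicate 2 the log2 fold change of FBN1 was -0.080, and without OIM replicate 1 that of EMILIN1 was 0.097. In a fit on only the 2 groups the adjusted p was 0.0760 for FBN1 and 0.0782 for EMILIN1. LOX, which encodes the founding lysyl oxidase, had 386 ± 13.4 CPM in control and 392 ± 10.3 CPM in OIM, and its log2 fold change of 0.024 had a 95% confidence interval from -0.052 to 0.10. For LOXL4 (-0.067, interval -0.17 to 0.038) and FBN2 (-0.075, interval -0.20 to 0.047) the interval also held 0 and stayed inside the fold limit. Without OIM replicate 2, FBN2 had -0.155 (adjusted p = 0.0477) and LOXL4 -0.020 (adjusted p = 0.850), and without OIM replicate 1 LOXL4 had -0.113.

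The comparison of bFGF with OIM asks what the growth factor changed in osteogenic medium, and it moved most of the set. ELN, LOXL2, FBN1, LOXL4 and LOX fell, and FBN2 and LOXL1 rose. These are 5 of 10 called lower and 2 of 10 called higher, against 18.4% and 17.7% of all genes. The median log2 fold change of the 10 was -0.85, beside -0.0029 for all genes tested. On the adjusted p alone 9 of 10 passed, against 67.4% of all genes, and the libraries of the 2 groups did not overlap in 9 of 10, against 72.1%. Differences of some size were thus common in the whole table.

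ELN fell from 254, 185 and 240 CPM in OIM to 41.6, 49.5 and 41.8 CPM with bFGF. No bFGF library came near the lowest OIM library. The log2 fold change was -2.35 (SE 0.090, 95% confidence interval -2.54 to -2.17, adjusted p = 9.17e-15), a 5.11-fold lower level that ranked 285th from the bottom among the 13662 genes. Without OIM replicate 2 it was -2.46.

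FBN1 had 4789, 4219 and 4859 CPM in OIM and 1670, 1691 and 1645 CPM in bFGF. The bFGF libraries lay close together, far under the OIM libraries. FBN1 fell by 1.47 on the log2 scale (SE 0.044, adjusted p = 2.35e-16), 2.77-fold. Its share of all gene counts was 0.408% to 0.459% in OIM and 0.183% to 0.187% in bFGF.

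FBN2 encodes fibrillin-2, the fibrillin best known from development and regeneration, and it moved the opposite way. It had 37.2, 43.5 and 37.1 CPM in OIM and 96.8, 94.8 and 100.1 CPM in bFGF, again without overlap. The log2 fold change was 1.31 (SE 0.058, adjusted p = 8.11e-14), 2.47-fold higher. Per kilobase of exon, the level of FBN1 was 105 to 142 times that of FBN2 in the OIM libraries, 124 to 140 times in the control libraries and 17.7 to 19.3 times in the bFGF libraries, so FBN1 remained the more abundant fibrillin in every library. FBN1 was also 7.01 to 8.47 times as abundant as ELN per kilobase in OIM, 16.0 to 17.6 times in control and 12.7 to 14.9 times in bFGF.

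FBLN5 and EMILIN1 were not called. FBLN5 had 144 ± 7.89 CPM in OIM and 159 ± 4.68 CPM in bFGF, a log2 fold change of 0.15 (interval 0.049 to 0.24, adjusted p = 0.00885), which was 0.37 with library totals in place of TMM. EMILIN1 had 331 ± 24.0 and 325 ± 4.35 CPM, and its log2 fold change of -0.025 (interval -0.13 to 0.077) changed sign without OIM replicate 1 (0.030) and with library totals in place of TMM (0.20). Scaling by library totals moved the median of all genes by 0.22 on the log2 scale in this comparison and the share of calls that were higher from 49.0% to 68.8%; the 7 calls among the members stood at 5 lower and 2 higher under it as well.

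Among the lysyl oxidases, LOXL2 fell most, from 1589, 1628 and 1575 CPM in OIM to 405, 403 and 397 CPM in bFGF. The 3 bFGF libraries were nearly alike. The log2 fold change was -1.99 (SE 0.038, adjusted p = 4.00e-19), 3.98-fold lower. LOX fell from 395, 381 and 401 CPM to 162, 160 and 155 CPM, by 1.30 on the log2 scale (adjusted p = 1.23e-16). LOXL4, another scavenger-receptor-type family member, fell from 158, 139 and 148 CPM to 56.5, 58.5 and 64.8 CPM, by 1.31 on the log2 scale (adjusted p = 1.85e-14). LOX and LOXL4 thus had nearly the same fold change at different levels.

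LOXL1 rose with bFGF, from 92.3, 87.3 and 85.4 CPM to 136, 145 and 126 CPM. Every bFGF library was above every OIM library. The log2 fold change was 0.62 (SE 0.051, interval 0.51 to 0.73, adjusted p = 1.64e-09). LOXL3 had 114, 110 and 121 CPM in bFGF, below all OIM libraries, and its log2 fold change of -0.40 (adjusted p = 1.16e-07) lay under the fold limit; with library totals it was -0.17.

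**Figure D2:**
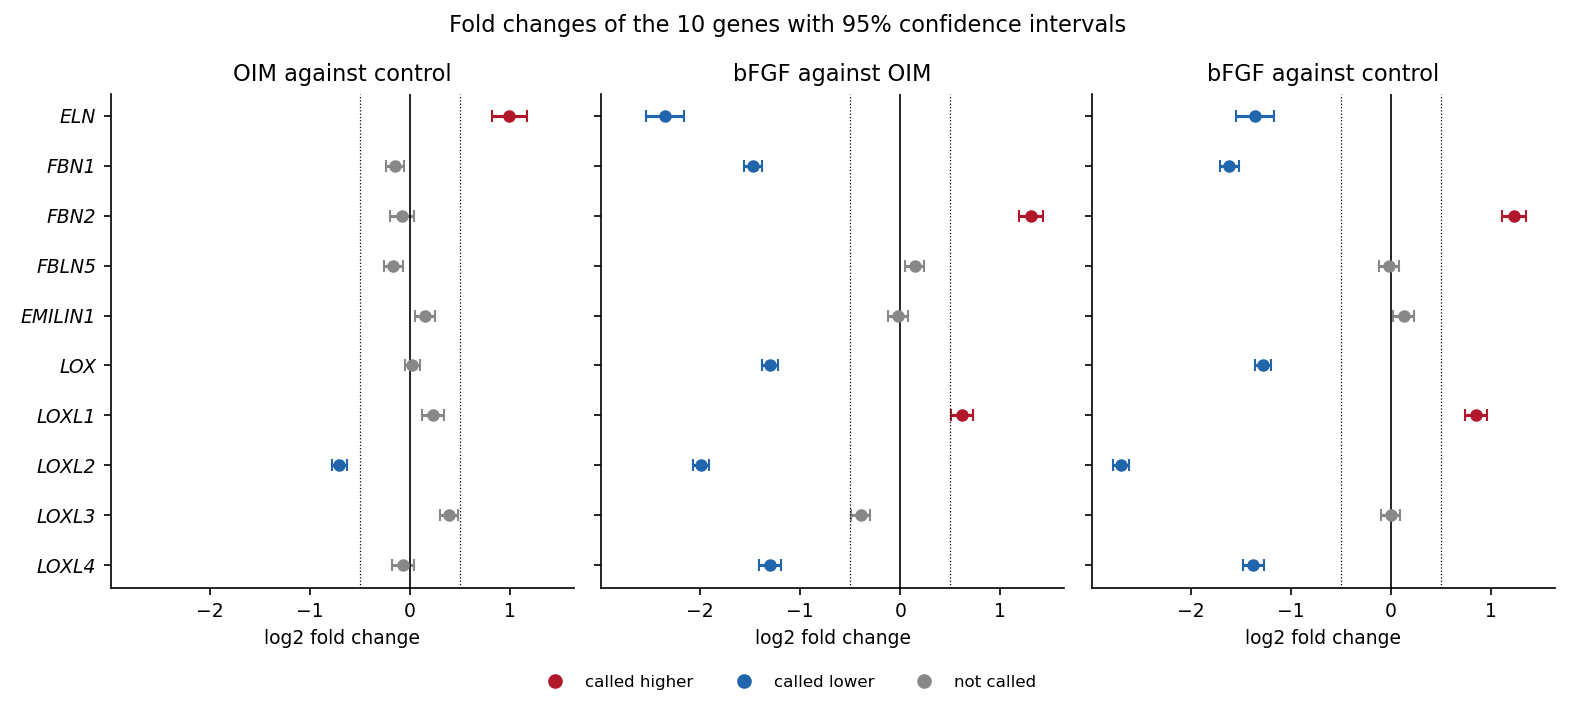
Log2 fold changes of the 10 genes in the 3 comparisons, with 95% confidence intervals from the edgeR fit; dotted lines mark the fold limit of 0.5. ELN lies at 0.997 for OIM against control and at -2.35 for bFGF against OIM, and FBN2 and LOXL1 are the 2 genes called higher with bFGF.

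The make-up of the lysyl oxidase transcripts differed between the media. Summed per kilobase of exon over the 5 genes, the family stood at 1004 to 1095 CPM per kilobase in control, 783 to 791 in OIM and 300 to 309 in bFGF. LOXL2 made up 67.0% ± 0.484 of this sum in control, 54.4% ± 1.04 in OIM and 35.2% ± 0.235 in bFGF. The share of LOX was 23.5% ± 0.323, 31.6% ± 0.830 and 33.0% ± 0.365. That of LOXL1 was 2.95% ± 0.0431 in control, 4.59% ± 0.158 in OIM and 18.1% ± 1.02 in bFGF. LOXL3 held 2.47% ± 0.0376 in control, 4.29% ± 0.166 in OIM and 8.39% ± 0.506 in bFGF, although its own level was 115 CPM in both control and bFGF. LOXL4 held 4.09% ± 0.124, 5.16% ± 0.305 and 5.38% ± 0.464. The groups did not overlap in the shares of LOXL2, LOX, LOXL1 and LOXL3, whereas OIM and bFGF overlapped in that of LOXL4. These shares are descriptions of the libraries and depend on the exon lengths used.

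**Figure D3:**
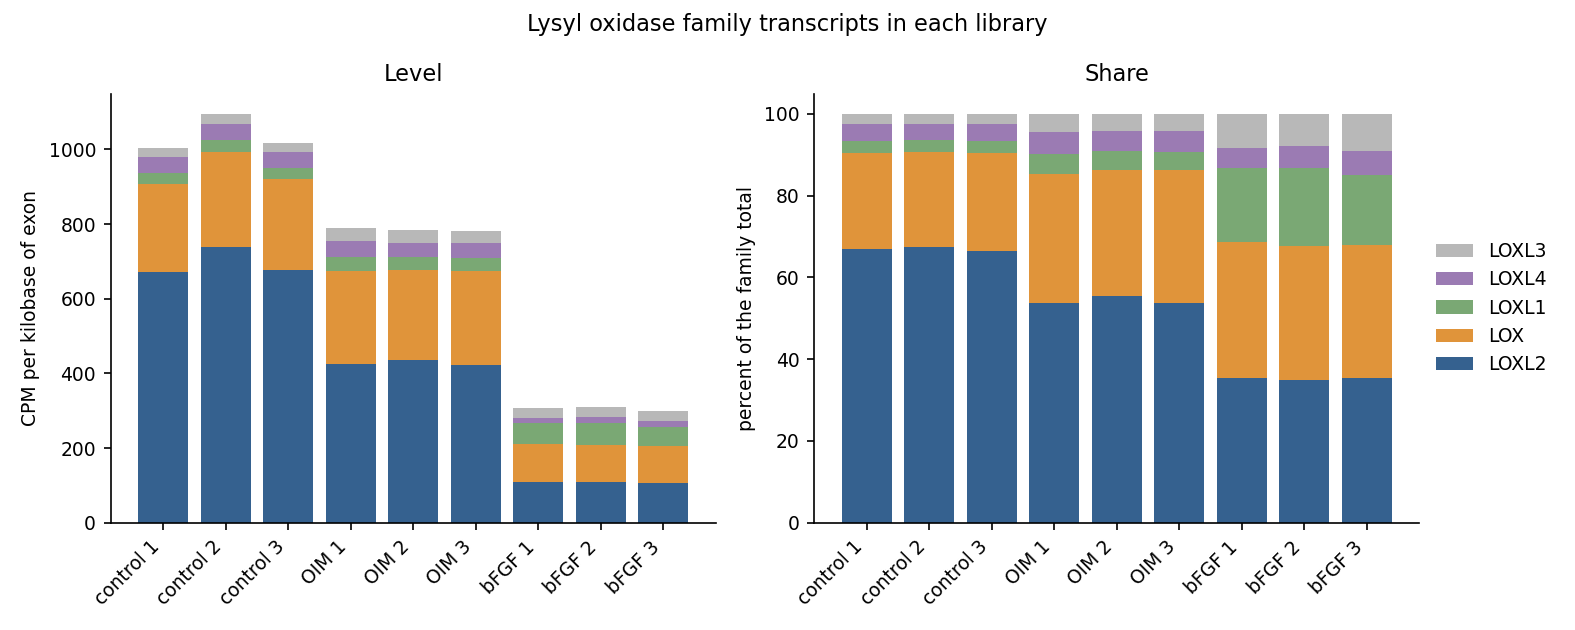
Transcripts of the 5 lysyl oxidase genes in each library, on the left as CPM per kilobase of exon and on the right as percent of their sum. The sum is 1004 to 1095 in the control libraries and 300 to 309 in the bFGF libraries, and the share of LOXL2 goes from 67.0% on average in control to 35.2% in bFGF.

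The comparison of bFGF with control shares its libraries with the others and is given for the levels reached. Again 5 of 10 genes were called lower (ELN, FBN1, LOX, LOXL2 and LOXL4) and 2 higher (FBN2 and LOXL1), against 20.0% and 18.9% of all genes. The adjusted p alone was passed by 8 of 10 (70.2% of all genes), and 8 of 10 had no overlap (73.7%). LOXL2 had the largest change of the set, a log2 fold change of -2.70 (SE 0.039, adjusted p = 8.86e-21), 6.49-fold lower and 204th from the bottom among all genes. FBN1 was 3.06-fold lower, LOXL4 2.59-fold, ELN 2.56-fold and LOX 2.43-fold lower. FBN2 was 2.35-fold and LOXL1 1.80-fold higher.

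The remaining genes sat near the control level. LOXL3 had 115 ± 5.29 CPM in bFGF and 115 ± 3.66 CPM in control, a log2 fold change of -0.0022 with an interval from -0.095 to 0.090. FBLN5 had a log2 fold change of -0.019 (interval -0.11 to 0.077), and EMILIN1 had 0.13 (interval 0.025 to 0.23, adjusted p = 0.0260). The EMILIN1 value was 0.35 with library totals, and its adjusted p passed 0.05 without control replicate 1 (0.168) or 3 or without bFGF replicate 2 or 3. The signs for LOXL3 and FBLN5 changed with the scaling and with single libraries left out.

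Transcripts whose course over the 9 libraries was most like that of 3 core members were looked up among 8895 other genes with a mean of at least 10 CPM. The measure was the root mean square difference in log2 CPM, each gene centred on its own mean. The nearest to ELN was ACAN, which encodes the cartilage proteoglycan aggrecan, at 0.163, followed by FRMPD3 (0.189) and WSCD2 (0.193). FBN1 was followed most closely by C1QTNF1 (0.0377), C1R (0.0570), which encodes a complement protease, and PTGFR (0.0607), a prostaglandin receptor gene. LOX had RIT1 (0.0428), FSTL1 (0.0448) and MROH1 (0.0473). The 9 libraries fall into 3 groups, and the likeness is a description only.

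The partners of the core set were read from 4 lists, whose counts stand beside the shares of all genes called: 1.49% higher and 0.864% lower in OIM against control, 17.7% and 18.4% in bFGF against OIM, and 18.9% and 20.0% in bFGF against control. With library totals in place of TMM, the 4 lists together went from 7 higher and 15 lower to 11 higher and 10 lower in bFGF against OIM. Over all genes, the share of calls that were higher went from 49% to 68.8% there. Of 16 genes for microfibril and fibulin partners 14 were tested, with FBN3 and MMRN1 at 0 counts. In OIM against control, where 1.49% of all genes were called higher and 0.864% lower, 1 of 14 was called higher and 0 lower (0 lower in DESeq2 as well). The gene called was MFAP2, which encodes a microfibril glycoprotein and went from 29.8 ± 1.22 to 53.2 ± 4.87 CPM (log2 fold change 0.84, adjusted p = 2.42e-07). An unadjusted p of at most 0.05 in either direction was reached by 7 of 14, beside 3574 of all 13662 genes. The median of the 14 was 0.11. In bFGF against OIM 6 of 14 were called lower and 2 of 14 higher, the latter near the share over all genes, with a median of -0.37. EFEMP1, which encodes fibulin-3, fell from 36.2 to 5.20 CPM (log2 fold change -2.80, adjusted p = 1.40e-15), and MFAP4, whose product binds elastin and microfibrils, from 231 to 68.2 CPM (-1.76). EFEMP2, which encodes fibulin-4, the adaptor that brings LOX to tropoelastin, fell by 1.25 on the log2 scale. EMILIN3 (2.21, from 0.225 to 1.04 CPM) and EMILIN2 (0.81) rose. In bFGF against control 7 of 14 were called lower (20.0% of all genes), led by EFEMP1 (-2.64) and FBLN2 (-1.49), and 2 of 14 higher, near the 18.9% of all genes, EMILIN3 (1.85) and EMILIN2 (0.88), with a median of -0.33.

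The latent TGF-beta binding proteins, fibrillin relatives that were part of that list, differed little. LTBP2, the most abundant by CPM of them, had 2410 CPM in OIM and 1957 CPM in bFGF (log2 fold change -0.30), under the fold limit. LTBP1 was called lower in bFGF against control only (-0.55), and LTBP3 and LTBP4 were called in 0 of the 3 comparisons.

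All 8 genes of the ADAMTS and ADAMTS-like family that bind or act on fibrillin were tested. In OIM against control, where 3574 of all 13662 genes had an unadjusted p of at most 0.05, 0 of the 8 were called in edgeR and 0 in DESeq2. Of the 8 genes, 1 had such an unadjusted p. That gene, ADAMTSL4, also passed the adjusted p (log2 fold change -0.43, adjusted p = 0.000499) with every OIM library below the control libraries, and missed only the fold limit. In bFGF against OIM ADAMTSL3 rose (0.82, from 142 to 252 CPM), and ADAMTSL5 (-0.98) and ADAMTS10 (-0.85), which encodes a microfibril-bound protease, fell. These are 1 of 8 higher and 2 of 8 lower, both near the shares over all genes (17.7% and 18.4%), and the median was 0.056. Against control ADAMTSL3 (0.87), ADAMTSL5 (-0.98) and ADAMTS10 (-0.77) were called, 1 of 8 higher and 2 of 8 lower, near the shares over all genes (18.9% and 20.0%), with a median of 0.018.

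The list for propeptide processing and copper supply had 10 genes, of which 9 were tested. PCOLCE was at 0 counts in every library, which does not show that its transcript was absent. In OIM against control 0 were called in edgeR and 0 in DESeq2, while 4 of 9 had an unadjusted p of at most 0.05, beside 3574 of all 13662 genes. In bFGF against OIM 4 of 9 rose and 1 of 9 fell, against 17.7% and 18.4% of all genes, with a median of 0.11. TLL1, which encodes a tolloid protease of the family that cleaves the LOX propeptide, rose from 8.26 to 27.9 CPM (log2 fold change 1.75, adjusted p = 3.25e-11), and POSTN, whose product periostin brings BMP1 to the matrix, rose from 599 to 1645 CPM (1.46). FN1, which encodes fibronectin, fell by 0.58. BMP1 itself, the main protease for the LOX propeptide, had 165 ± 4.26 CPM in OIM and 175 ± 0.482 CPM in bFGF (log2 fold change 0.086, adjusted p = 0.0626). ATP7A, the pump that loads copper onto lysyl oxidases, had a log2 fold change of -0.077 (adjusted p = 0.149) and was not called. Against control the numbers were again 4 of 9 higher (18.9% of all genes), led by TLL1 (2.01) and TLL2 (1.66), and 1 of 9 lower (20.0% of all genes), FN1 (-0.56), with a median of 0.15.

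Of 9 genes for proteases that can degrade elastin 7 were tested, with MMP7 at 0 counts and ELANE at no more than 2. In OIM against control 1 of 7 was called lower (0.864% of all genes), MMP12, the macrophage elastase, from 3.65 to 1.72 CPM (-1.09, adjusted p = 0.00933). In the other direction 0 were called higher (0 in DESeq2), against 1.49% of all genes. On the adjusted p alone 5 of 7 passed, against 13.6% of all genes, all with a negative sign. The same 5 had an unadjusted p of at most 0.05, beside 3574 of all 13662 genes. CTSK went from 1347 to 958 CPM (-0.49, adjusted p = 1.73e-08), with every OIM library below the control libraries, and missed only the fold limit. In bFGF against OIM 6 of 7 fell and 0 rose (0 in DESeq2; CTSS had 0.44 with an adjusted p of 0.000343, under the fold limit), against 18.4% of all genes called lower and 17.7% called higher. The median was -0.82. CTSL fell from 191 to 49.0 CPM (-1.96, adjusted p = 9.82e-19) and MMP12 from 1.72 to 0.943 CPM (-0.86). The leukocyte marker sum given above, mostly CD14, was lower as well, and its part in this was not tested. CTSL and CTSV are close relatives that can share reads. Against control 6 of 7 fell (20.0% of all genes), led by CTSL (-2.03) and MMP12 (-1.96), with a median of -1.23.

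**Figure D4:**
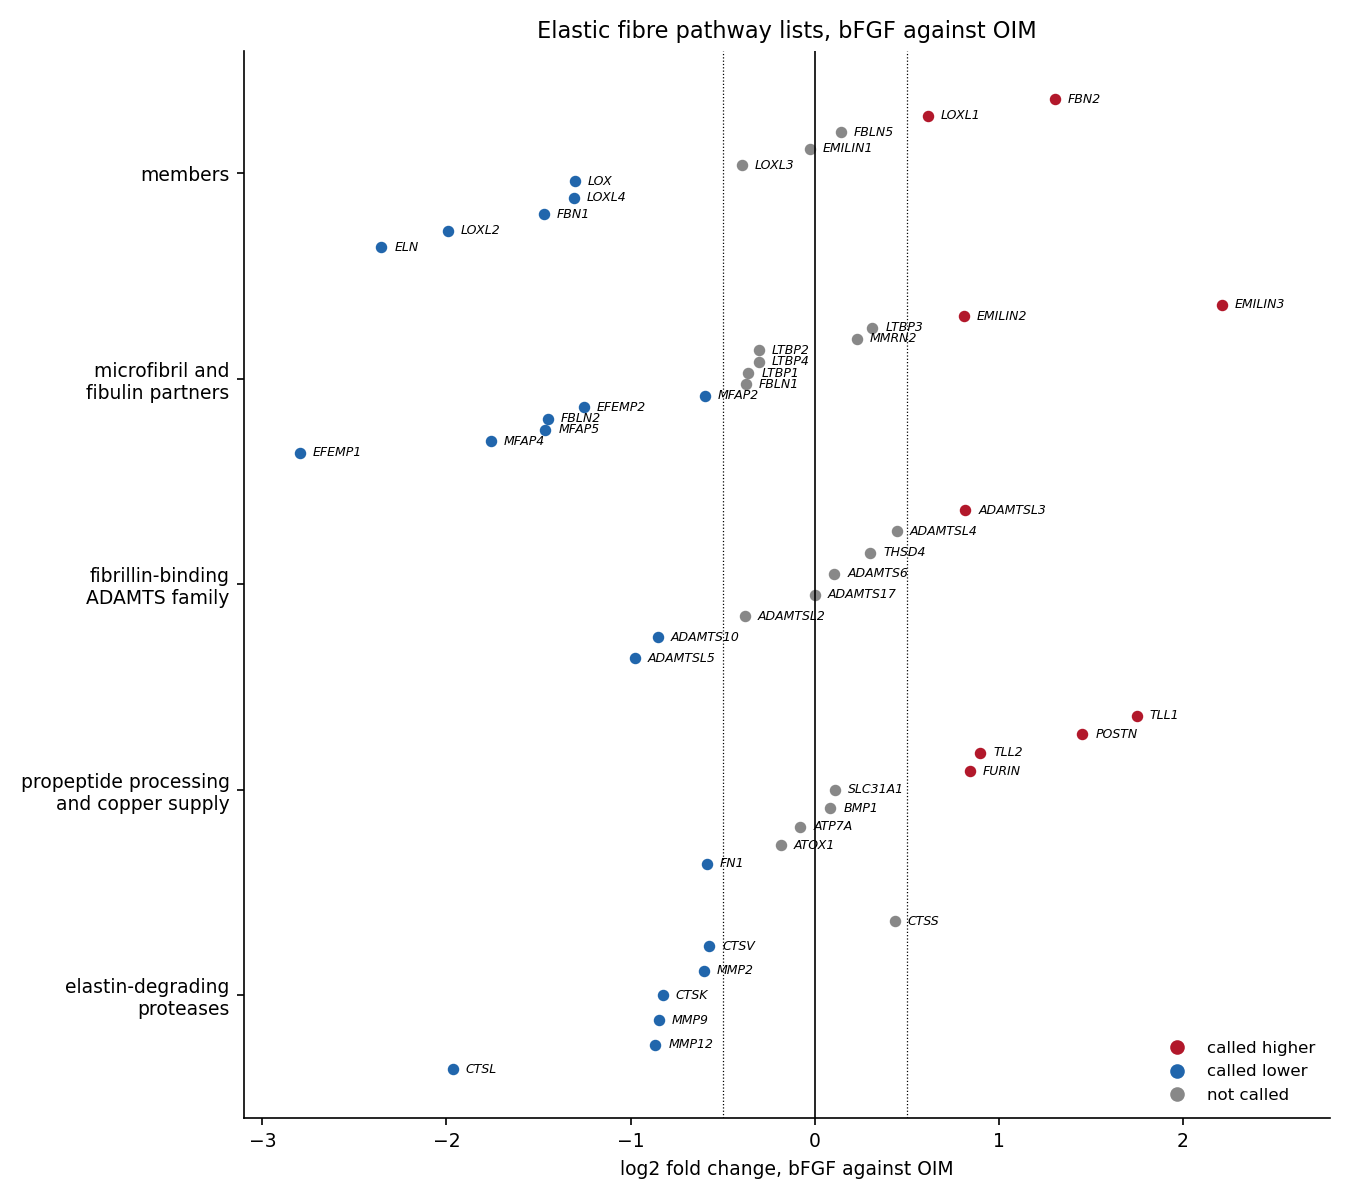
Log2 fold changes of bFGF against OIM for the 10 members and the tested genes of the 4 partner lists, each point 1 gene; dotted lines mark the fold limit of 0.5. The members run from ELN at -2.35 to FBN2 at 1.31, and 6 of the 7 tested proteases were called lower.

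The table's other rows gave little at these loci. By coordinates, 4 circRNAs lay inside FBN1 and 0 inside the other 9 genes. The most frequent of them over the libraries (chromosome 1, 123235412 to 123276814) had 4 and 5 junction reads in OIM replicates 2 and 3, 2 in bFGF replicates 2 and 3, and 0 in the other 5 libraries. Another (123224121 to 123224277) had 8 in control replicate 1 and 0 elsewhere, and the other two had 2 in control replicate 2 alone. Of the RefSeq non-coding transcripts in the table, 3 isoforms of 1 gene on the plus strand (59493953 to 59617780) overlapped LOXL1, which lies on the minus strand. They had at most 5.15 estimated counts in any library. These numbers are too low for a comparison.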

How the data were processed

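RNA of 9 PVIC libraries, 3 each for control, OIM and bFGF, was sequenced, with poly-A selection per the study's methods. The study's methods name Cutadapt and STAR on susScr11, the submitters' processing notes name Trimmomatic, HISAT2 and StringTie on Sscrofa11.1, and the labels and the methods also differ in the library kit; the program that counted the reads and its use of strand are not given in the sources used here. The authors deposited counts per gene without normalization, estimated counts per non-coding transcript and junction counts per circRNA, as 19535, 9888 and 6179 rows. A further 19 columns without a name were not used.

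Gene counts (46773376 to 67371523 per library) were fitted in edgeR 4.0.16 (R 4.3.3) with filterByExpr, TMM and the quasi-likelihood model on 3 groups, with 6 residual degrees of freedom and Benjamini-Hochberg adjustment over 13662 genes. The spread of each gene was moderated towards that of all genes, so the tests and intervals rest on 19.02 total degrees of freedom. The thresholds, 0.05 and 0.5, are those of the study's methods. Standard errors were the size of the log2 fold change over the square root of F. With a common biological coefficient of variation of 0.0602, counting error is small at the members' counts, which are all above 2000. The fit was tested on simulated counts. CPM per kilobase used the union of RefSeq exons. The alternatives were DESeq2 1.42.0, other normalizations, filters and thresholds, fits on 2 groups, a replicate block and leaving out each library. The members, the lists and the markers were chosen with earlier results of these data known. The genes named are all members, the 2 called genes with the largest change in each direction of each list, and the nearest profiles. Others (EFEMP2, LTBP1 to LTBP4, ADAMTSL4, BMP1, ATP7A, CTSK, CTSS, CTSV, the genes at 0 counts and the markers) were chosen after their values were seen. The upstream window of 1 member is not reported here.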

Additional observations from a re-analysis of the deposited data

How the results depend on the processing

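The counts of members called were the same under DESeq2, median-of-ratios factors, library totals, both filters, fits on 2 groups, unadjusted p and every fit without 1 library. Only the fold limit changed them. Without a limit, OIM against control had 4 higher and 3 lower. With a limit of 1 it had 0 and 0, since ELN and LOXL2 lay under it, and bFGF against OIM and against control each had 1 higher, FBN2. For the partner lists together, OIM against control had 1 higher and 1 lower as reported; there were 4 and 9 without a limit, 0 higher with a limit of 1, 2 higher at an unadjusted p, and 1 to 2 lower without single libraries (2 without control replicate 3 or any 1 OIM library). In bFGF against OIM the lists had 7 higher and 15 lower. There were 11 higher and 10 lower with library totals, 11 and 19 without a limit, and 3 higher and 6 lower with a limit of 1. Library totals moved the median of all genes by 0.22 in this comparison and the share of all calls that were higher from 49% to 68.8%. Against control the lists had 7 and 16, with 10 and 13 with library totals, 12 and 20 without a limit, and 4 and 9 with a limit of 1. The share of all calls that were higher in that comparison was 48.5% with TMM and 68.1% with library totals.

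Of 570 values of single members under the alternatives, 544 kept their sign and call. The sign changed for 3 differences near 0. For EMILIN1 in bFGF against OIM it was 0.20 with library totals and ranged from -0.056 to 0.030 without single libraries. For FBLN5 in bFGF against control it was 0.21 with library totals and ranged from -0.062 to 0.0052 without single libraries. For LOXL3 in that comparison it was 0.0053 in DESeq2, 0.0051 with median-of-ratios factors, 0.22 with library totals and 0.013 with only the 2 groups, and ranged from -0.038 to 0.027 without single libraries.

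Same-numbered libraries did not deviate together (correlations from -0.032 to 0.0035 over genes, and 0 of 9 libraries matched best with their own number), so the numbers were not taken as pairs. With the replicate block the members called were 1 higher and 1 lower, then 2 and 5, and 2 and 5, as without it. The adjusted p of FBN1 and EMILIN1 in OIM against control, which were under the fold limit, became 0.0506 and 0.0664 (0.0312 and 0.0440 without the block). All members had at least 2017 counts in every library, so depth limits only low partners such as EMILIN3, MMP12 and TLL2.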
